A study of Mus musculus with 36 samples.

Results

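Genes whose RNA moved alike or apart in the Mfn1-/- and the Mfn2-/- line were read from the 12 libraries of day -2 among the 36 libraries of the series. For each of 14293 genes tested, the Mfn1-/- effect was the log2 difference between 3 Mfn1-/- libraries and WT libraries A to C, and the Mfn2-/- effect was that between 3 Mfn2-/- libraries and WT libraries D to F. A gene was called in an effect at an adjusted p under 0.01 from limma. It moved alike when it was called in both effects in the same direction (1461 genes, 774 higher and 687 lower in both lines), and apart when it was called in opposite directions (348 genes, of which 263 were higher in Mfn1-/- and lower in Mfn2-/- MEFs and 85 were the reverse).

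The study sequenced bulk RNA of mouse embryonic fibroblasts (MEFs) before and during adipogenic differentiation. The groups at day -2 were Mfn1-/- MEFs, WT MEFs A-C, Mfn2-/- MEFs and WT MEFs D-F, with 3 libraries each. The study describes them as independent biological replicates. All were cells at confluence that had not yet met the adipogenic cocktail of rosiglitazone, IBMX, dexamethasone, insulin, pantothenate and biotin. Each genotype was 1 MEF line from a repository, so genotype and line cannot be told apart. The 2 effects used different WT libraries of the same WT line, and the overlap and correlation between the effects are therefore given as descriptions. In bulk RNA, fewer cells of a type and less RNA per cell cannot be told apart.

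The mitofusins MFN1 and MFN2 are GTPases of the outer mitochondrial membrane that tether neighbouring mitochondria and fuse their outer membranes. Both take part in fusion, and MFN2 has also been linked to contacts between mitochondria and the endoplasmic reticulum. Fibroblasts in culture keep much of the expression of HOX, TBX and other positional regulators of the body site they came from, and fibroblast lines can be driven into adipocytes through PPARG and the C/EBP factors.

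Mfn1 and Mfn2 RNA check the labels. Values throughout are normalised read counts, which are reads per gene divided by 1 factor per library. Mfn1 (ENSMUSG00000027668, chromosome 3, 32529465 to 32579239 of GRCm38) was at 165, 163 and 188 in Mfn1-/- MEFs against 1279, 1457 and 1291 in WT A-C, a log2 fold change of -2.96 with a standard error (SE) of 0.14 and an adjusted p of 1.74e-16. In the other line Mfn1 was at 853, 875 and 902 in Mfn2-/- MEFs against 902, 954 and 899.5 in WT D-F, and it did not pass the test there (-0.07, adjusted p = 0.739). Mfn2 (ENSMUSG00000029020, chromosome 4, 147873599 to 147904704) was at 212, 230.1 and 236 in Mfn2-/- MEFs against 902, 956 and 968 in WT D-F, a log2 fold change of -2.06 (SE 0.17, adjusted p = 9.40e-12), whereas its effect in Mfn1-/- MEFs was -0.38 (adjusted p = 0.0799), with 1201, 1285 and 1187 in Mfn1-/- MEFs against 1597, 1740 and 1461 in WT A-C. That smaller fall passed with the replicate block, in the 12 libraries alone, with DESeq2 and with edgeR (adjusted p = 9.63e-05 to 0.00834, log2 fold changes of -0.38 to -0.37). At day -2 each line was thus low in the RNA of its own mitofusin. The libraries held 8800674 to 37011894 reads (median 11670496). The summed level of 11 fibroblast markers ran from 433500 to 548900 in Mfn1-/- MEFs against 436100 to 579800 in WT A-C, and from 90840 to 97060 in Mfn2-/- MEFs against 204300 to 222600 in WT D-F, with no marker at 0 reads in any group. Between the 2 WT sets themselves, 2920 genes (20.4%) were called after TMM scaling.

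The Mfn1-/- effect held 3207 called genes (22.4%), with 1781 higher (12.5%) and 1426 lower (9.98%). The Mfn2-/- effect held 5079 (35.5%), with 2348 higher (16.4%) and 2731 lower (19.1%). A total of 1809 genes were called in both, and 80.8% of these moved alike. Genes higher in both lines made up 5.42% of all genes tested, genes lower in both 4.81%, genes higher in Mfn1-/- and lower in Mfn2-/- MEFs 1.84%, and genes lower in Mfn1-/- and higher in Mfn2-/- MEFs 0.595% (10.2% alike and 2.43% apart). Of the genes that rose in Mfn1-/- MEFs, 43.5% also rose in Mfn2-/- MEFs and 14.8% fell there. Of the genes that fell in Mfn1-/- MEFs, 48.2% also fell in Mfn2-/- MEFs and 5.96% rose there. Read from the other side, the genes higher in both lines were 32.96% of the Mfn2-/- rises and the genes lower in both were 25.2% of the Mfn2-/- falls. DESeq2 on the recovered reads of the 12 libraries called 1199 and 1272 genes alike and 527 and 245 apart. With the WT sets crossed after TMM scaling, 731 and 655 genes moved alike and 1040 and 1326 apart, where a difference between the WT sets enters the 2 effects with opposite signs.

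**Figure D1:**
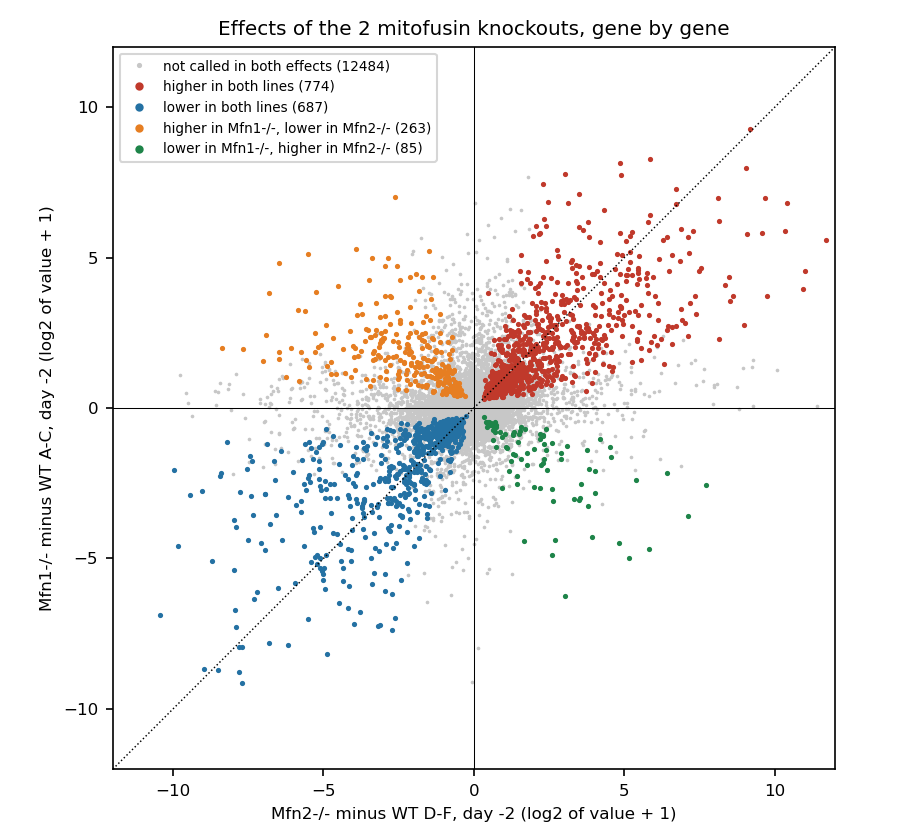
The Mfn2-/- effect (horizontal axis, log2) is plotted against the Mfn1-/- effect (vertical axis, log2) with 1 point for each of the 14293 genes tested, coloured by class. Most of the 1809 genes called in both effects lie in the quadrants where the effects share a sign, and 348 lie in the other quadrants.

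Median changes exceeded 1 on the log2 scale in all 4 classes. The median log2 fold changes of the Mfn1-/- and the Mfn2-/- effect were 1.76 and 1.88 for the genes higher in both lines, -1.15 and -1.59 for the genes lower in both, 1.59 and -1.92 for the genes higher in Mfn1-/- and lower in Mfn2-/- MEFs, and -1.39 and 2.00 for the reverse, beside -0.02 and -0.02 over all genes tested. With genes of 0 reads set at a lower bound, the medians -1.59, -1.92 and -1.39 became -1.55, -1.89 and -1.36. Both effects exceeded 1 on the log2 scale in 511, 351, 179 and 52 genes of these classes. Knockout and WT libraries did not overlap in either effect for 767, 682, 260 and 82 genes of the 4 classes. The same libraries had chosen these genes, so this adds no support to the calls. The rule for naming genes also required it. Across all 14293 genes the effects correlated with a Pearson r of 0.40 and a Spearman rho of 0.32, where genes are not independent replicates and the effects share the WT line.

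Genes higher in both lines were led by Peg3, Ptprb, Myrf, Wt1, Bmp7, Gpr39 and Tbx20, which were close to silent in all 6 WT libraries. Peg3, a paternally expressed imprinted gene for a zinc finger protein (ENSMUSG00000002265, chromosome 7, 6703892 to 6730431), was at 7435, 5219 and 6401 in Mfn1-/- MEFs against 31.9, 15.6 and 27.3 in WT A-C. Peg3 in Mfn2-/- MEFs was at 5762, 5407 and 5985, against 7.78, 10.8 and 10.9 in WT D-F. Its log2 fold changes were 7.98 (SE 0.52, adjusted p = 1.12e-12) and 9.06 (SE 0.52, adjusted p = 1.57e-14). Its imprinted neighbour Usp29, a ubiquitin protease gene, had reads in every knockout library and 0 reads in every WT library, with 106, 44.1 and 77.4 in Mfn1-/- MEFs (at least 105-fold higher than WT A-C) and 51.05, 55.2 and 56.3 in Mfn2-/- MEFs (at least 55.4-fold higher than WT D-F). Such bounds set the WT group at a floor of 3 reads in all.

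Wt1 and Tbx20, transcription factors of the mesothelium and the heart, moved with Peg3. Wt1 was at 1113, 711 and 998 in Mfn1-/- MEFs against 19.1, 6.68 and 2.6 in WT A-C (log2 fold change 6.81). Wt1 in Mfn2-/- MEFs was at 6775, 6429 and 5765, against 6.81, 1.07 and 5.43 in WT D-F (10.39). Tbx20 (ENSMUSG00000031965, chromosome 9, 24718138 to 24774303) was at 761, 571 and 854 in Mfn1-/- MEFs against 8.5, 6.68 and 11.3 in WT A-C. Tbx20 in Mfn2-/- MEFs was at 970.0, 944 and 1174, against 2.92, 2.15 and 2.72 in WT D-F, with log2 fold changes of 6.22 (SE 0.32, adjusted p = 5.84e-16) and 8.16 (SE 0.32, adjusted p = 1.60e-19). For both transcription factors the lowest knockout library stood far above the highest WT library, where the naming rule already required no overlap.

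The other leaders of this class encode a phosphatase of endothelial cells, a regulator of myelin genes, a BMP ligand and a zinc-sensing receptor. Ptprb was at 418, 348 and 395 in Mfn1-/- MEFs against 1.06, 3.34 and 2.17 in WT A-C (6.99). Ptprb in Mfn2-/- MEFs was at 371, 372 and 305, against 0, 1.07 and 0 in WT D-F (1074-fold higher (95% counting interval 192 to 42460)). Myrf was at 2073, 2273 and 1705 in Mfn1-/- MEFs against 26.6, 12.2 and 9.97 in WT A-C (6.98). Myrf in Mfn2-/- MEFs was at 7822, 7429 and 6662, against 6.81, 7.52 and 9.96 in WT D-F (9.66). Bmp7 was at 199.6, 261 and 292 in Mfn1-/- MEFs against 1.06, 1.11 and 1.73 in WT A-C (6.77). Bmp7 in Mfn2-/- MEFs was at 262, 247 and 229.5, against 1.95, 3.22 and 0 in WT D-F (6.73). Gpr39 was at 571, 516 and 519 in Mfn1-/- MEFs against 4.25, 4.45 and 0.433 in WT A-C (7.28). Gpr39 in Mfn2-/- MEFs was at 522, 534 and 613, against 4.87, 4.3 and 3.62 in WT D-F (6.73). For Bmp7 the difference between the effects was 0.03, with a wide 95% interval of -1.68 to 1.75, and was not called. Myrf and Wt1 rose further in Mfn2-/- MEFs, with differences of -2.68 (SE 0.49, adjusted p = 7.09e-05) and -3.57 (SE 0.68, adjusted p = 1.54e-04).

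The promoters of Peg3 and Tbx20 are shown because these genes had high levels in both knockout lines and few reads in WT. Each sequence runs from 250 bases before to 50 bases after the start of the gene, 5′ to 3′ on the strand of the gene, from RefSeq on GRCm38.p6 (Peg3 chr7:6730370-6730669, minus strand; Tbx20 chr9:24774254-24774553, minus strand). Capitals mark matches on either strand to any of 7 motifs, given here with the share of the 10458 promoters of tested genes that hold them: TATAAA (6.87%), CCAAT (38.9%), GGGCGG (66.1%), TGACTCA (3.51%), CATTCC (11.8%), CACGTG (10.2%) and CAGCTG (14.6%). Only 73.2% of the tested genes had a promoter in the table, so no comparison of motif shares between classes was made. Peg3 held 2 matches to CCAAT and 1 to CATTCC, and Tbx20 held 2 matches to GGGCGG.
Peg3: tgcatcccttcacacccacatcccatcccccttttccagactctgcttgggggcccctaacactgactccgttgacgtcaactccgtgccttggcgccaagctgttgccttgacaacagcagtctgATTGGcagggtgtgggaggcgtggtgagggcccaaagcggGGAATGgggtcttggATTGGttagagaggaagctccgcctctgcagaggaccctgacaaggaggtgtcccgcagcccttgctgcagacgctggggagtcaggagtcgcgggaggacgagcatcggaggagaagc
Tbx20: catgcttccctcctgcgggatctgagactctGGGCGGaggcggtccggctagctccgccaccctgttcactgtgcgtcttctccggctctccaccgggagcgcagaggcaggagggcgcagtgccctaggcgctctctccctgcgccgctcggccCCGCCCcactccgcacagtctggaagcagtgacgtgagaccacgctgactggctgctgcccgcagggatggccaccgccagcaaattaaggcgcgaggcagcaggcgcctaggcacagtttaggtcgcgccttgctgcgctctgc

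**Figure D2:**
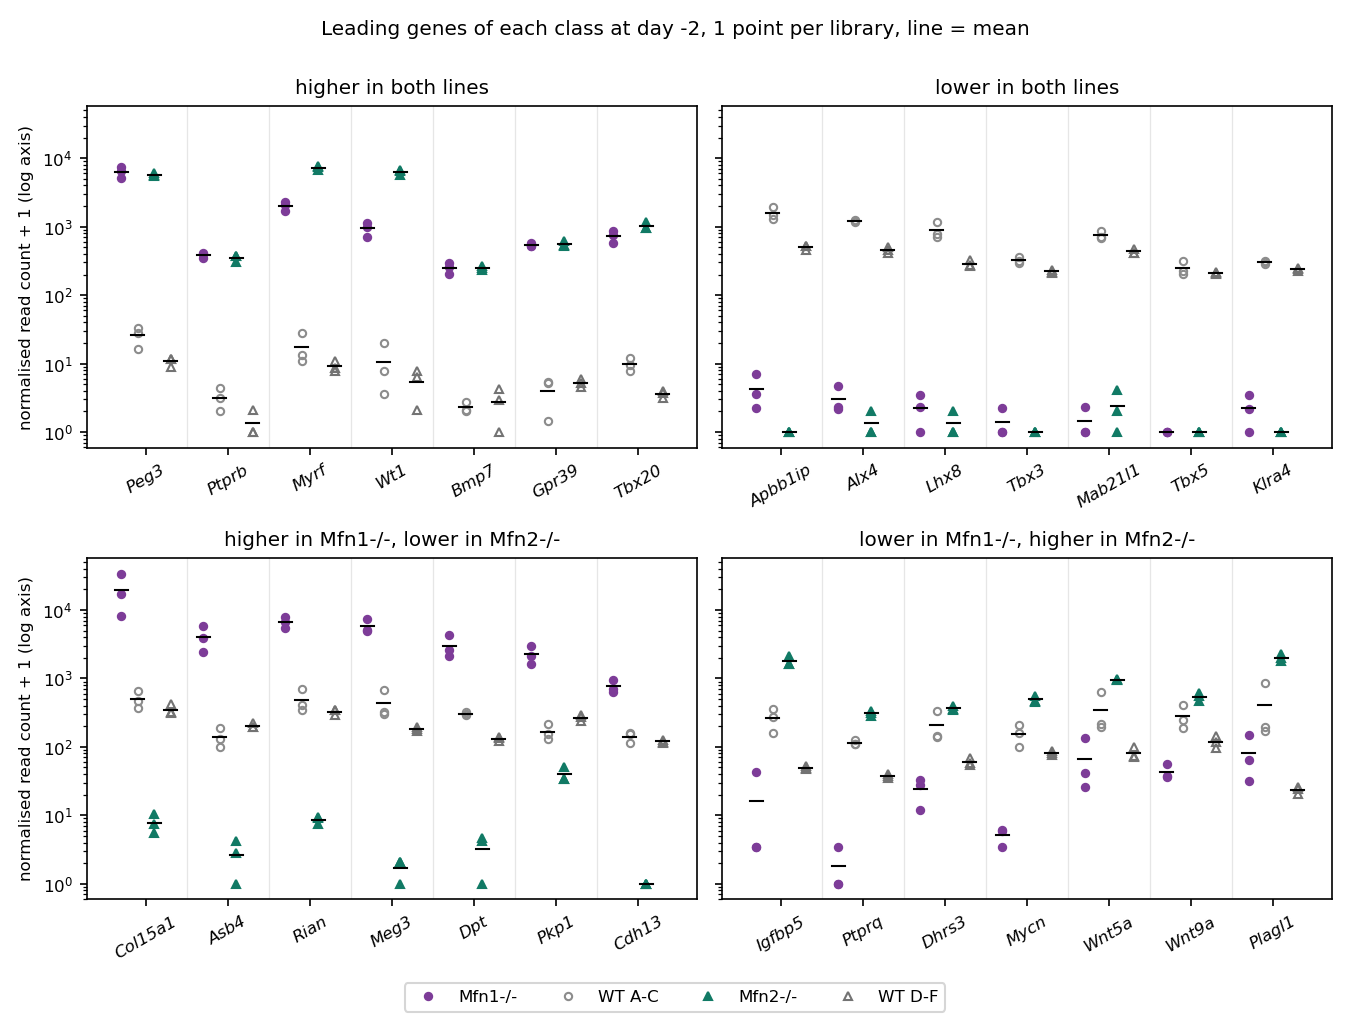
Normalised read counts (log axis, plotted as count plus 1) of the 7 leading genes of each class, with 1 point per library and a line at the mean of each of the 4 groups, Mfn1-/-, WT A-C, Mfn2-/- and WT D-F. In the upper panels the 2 knockout lines sit on the same side of WT, and in the lower panels they sit on opposite sides.

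Markers of mesothelium, the epithelium that lines the body cavities, were among the genes higher in both lines. Of 8 mesothelial markers measured, 6 rose in both lines, against 5.42% of all genes. The medians of the 8 were 3.62 in the Mfn1-/- and 9.18 in the Mfn2-/- effect. Krt19, a keratin, was at 959, 1066 and 388 in Mfn1-/- MEFs against 26.6, 54.5 and 18.2 in WT A-C. Krt19 in Mfn2-/- MEFs was at 3433, 3604 and 3119, against 74.9, 75.2 and 76.99 in WT D-F (log2 fold changes 4.58 and 5.46). Lrrn4 was at 39.7, 30.6 and 85.1 in Mfn1-/- MEFs and at 3630, 3361 and 3100 in Mfn2-/- MEFs, with 0 reads in all 6 WT libraries (at least 70.7-fold higher and at least 3433-fold higher). Upk1b, a uroplakin, was at 84.2, 87.01 and 33.5 in Mfn1-/- MEFs against 5.31, 2.23 and 0 in WT A-C (4.54). Upk1b in Mfn2-/- MEFs was at 3376, 3339 and 2945, against 0.973, 0 and 0.906 in WT D-F (4940-fold higher (95% counting interval 1367 to 40790)). The summed level of the list did not separate Mfn1-/- MEFs (2460 to 4061) from WT A-C (2852 to 4643), and it was 35080 to 39190 in Mfn2-/- MEFs against 1320 to 1384 in WT D-F. Msln, the mesothelin gene, was at 1785, 1593 and 831 in Mfn1-/- MEFs against 4548, 3830 and 2802 in WT A-C (-1.46). Msln in Mfn2-/- MEFs was at 1126, 1136 and 876, against 1278, 1294 and 1226 in WT D-F (-0.29, adjusted p = 0.608), and the Mfn1-/- effect lost its call without Mfn1-/- B, Mfn1-/- C, WT A or WT B (adjusted p = 0.0103 to 0.0599). For Upk3b, which was at 18.03, 12.2 and 21.9 in Mfn1-/- MEFs against 1.06, 1.11 and 3.9 in WT A-C and at 17510, 18470 and 16730 in Mfn2-/- MEFs against 1.95, 0 and 0 in WT D-F, the Mfn1-/- effect lost its call without Mfn1-/- A, Mfn1-/- C, WT A or WT B (adjusted p = 0.011 to 0.0173).

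Of 10 cardiac muscle markers listed, 5 were measured, and 4 of these rose in both lines, against 5.42% of all genes. The 4 were Gata4, Tnnt2, Tnni1 and Tbx20. The rest of the list (Tnni3, Myh6, Myh7, Nkx2-5, Actc1 and Myl7) was not measured or not called in both effects. Gata4, a transcription factor of heart and gut mesoderm, was at 2437, 2031 and 2076 in Mfn1-/- MEFs against 94.6, 93.5 and 113 in WT A-C. Gata4 in Mfn2-/- MEFs was at 2839, 2886 and 2723, against 81.7, 84.9 and 80.6 in WT D-F, with log2 fold changes of 4.43 (SE 0.13, adjusted p = 5.62e-22) and 5.08 (SE 0.13, adjusted p = 9.32e-24). Tnnt2, cardiac troponin T, was at 2626, 2046 and 3266 in Mfn1-/- MEFs against 13.8, 11.1 and 17.3 in WT A-C (7.45). Tnnt2 in Mfn2-/- MEFs was at 161, 172 and 244, against 32.1, 53.7 and 29.9 in WT D-F (2.31). Tnni1, a troponin I of slow muscle and embryonic heart, was at 1179, 1361 and 1794 in Mfn1-/- MEFs against 5.31, 3.34 and 2.6 in WT A-C (8.27). Tnni1 in Mfn2-/- MEFs was at 211, 226 and 342, against 4.87, 4.3 and 1.81 in WT D-F (5.84). The 2 troponin genes rose further in Mfn1-/- than in Mfn2-/- MEFs, with differences of 5.14 (SE 0.57, adjusted p = 1.52e-08) and 2.43 (SE 0.59, adjusted p = 0.00197). The summed cardiac markers ran from 6028 to 7998 in Mfn1-/- MEFs against 138.0 to 165.6 in WT A-C, and from 4188 to 4489 in Mfn2-/- MEFs against 126.5 to 148.3 in WT D-F. The keratin gene Krt18 of simple epithelia was at 406, 173 and 47.7 in Mfn1-/- MEFs against 8.5, 6.68 and 3.9 in WT A-C. Krt18 in Mfn2-/- MEFs was at 402, 375 and 343, against 17.5, 9.67 and 3.62 in WT D-F (log2 fold changes 4.41 and 5.27).

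Of 18 adipogenic regulators measured before any cocktail, 4 rose in both lines, against 5.42% of all genes, 1 (Ebf1) fell in both, and Pparg and Ebf2 were higher in Mfn1-/- and lower in Mfn2-/- MEFs. For Ebf2 (4.37 and -1.36), the Mfn2-/- effect lost its call without Mfn2-/- B or WT D (adjusted p = 0.0216 to 0.0302). Cebpa, a core adipogenic transcription factor, was at 69.7, 85.8 and 125 in Mfn1-/- MEFs against 5.31, 6.68 and 9.54 in WT A-C (3.52, adjusted p = 1.03e-09). Cebpa in Mfn2-/- MEFs was at 67.0, 90.6 and 77.6, against 8.76, 10.8 and 5.43 in WT D-F (3.12, adjusted p = 4.28e-09). Klf9 was at 374, 332 and 599 in Mfn1-/- MEFs against 113, 160.3 and 207 in WT A-C (1.43). Klf9 in Mfn2-/- MEFs was at 519, 504 and 469.6, against 128, 124 and 144 in WT D-F (1.91). Zfp467, a cofactor of C/EBP factors, was at 345, 312 and 319 in Mfn1-/- MEFs against 76.5, 31.2 and 45.1 in WT A-C (2.75). Zfp467 in Mfn2-/- MEFs was at 188, 163 and 158, against 27.2, 32.2 and 17.2 in WT D-F (2.73). The difference between the effects was 0.02 for Zfp467 (95% interval -1.30 to 1.34) and -0.48 for Klf9 (95% interval -1.17 to 0.21). Lpl, lipoprotein lipase, was at 2110, 2216 and 5398 in Mfn1-/- MEFs against 126, 102 and 142 in WT A-C (4.57). Lpl in Mfn2-/- MEFs was at 1478, 1389 and 1268, against 88.5, 74.2 and 75.2 in WT D-F (4.10). Lpl was the only one of 18 adipocyte lipid genes that rose in both lines, and 4 fell in both, against 5.42% and 4.81% of all genes.

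Matrix genes, receptors and ligands made up further parts of this class. The collagen gene Col8a2 was at 1926, 3158 and 8007 in Mfn1-/- MEFs against 136, 160.3 and 212 in WT A-C (4.45). Col8a2 in Mfn2-/- MEFs was at 3108, 3180 and 2728, against 91.5, 91.4 and 131 in WT D-F (4.85). Col4a6, a basement membrane collagen, was at 6940, 7132 and 11630 in Mfn1-/- MEFs against 864, 1049 and 1743 in WT A-C (2.84). Col4a6 in Mfn2-/- MEFs was at 1758, 1770 and 1747, against 517, 483 and 573 in WT D-F (1.75). Lama5, a laminin chain, was at 8532, 7159 and 8161 in Mfn1-/- MEFs against 1110, 1275 and 1869 in WT A-C (2.52). Lama5 in Mfn2-/- MEFs was at 4525, 4067 and 4067, against 747, 810.4 and 769.9 in WT D-F (2.44). The gelatinase gene Mmp2 was at 14530, 12090 and 17670 in Mfn1-/- MEFs against 1677, 1053 and 1638 in WT A-C (3.35). Mmp2 in Mfn2-/- MEFs was at 12340, 12460 and 9536, against 352, 377 and 424 in WT D-F (4.89). For these 4 matrix genes, every knockout library exceeded every WT library of its set, as the naming rule required. Fmod, Adamts9 and Itgb3, which encode a small proteoglycan, a protease and an integrin chain, had effects of 2.66 and 3.72, 1.49 and 1.52, and 3.59 and 3.21 in Mfn1-/- and Mfn2-/- MEFs. In all, 3 of 23 collagens rose and 6 fell in both lines. The counts were 2 up and 3 down of 24 matricellular genes, 3 and 4 of 26 matrix proteases and inhibitors, and 3 and 2 of 28 integrins and laminins, against 5.42% up and 4.81% down of all genes.

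Among signalling genes, Igfbp4, which binds insulin-like growth factors, was at 6169, 5005 and 11370 in Mfn1-/- MEFs against 744, 513 and 1044 in WT A-C (3.26). Igfbp4 in Mfn2-/- MEFs was at 3335, 3262 and 3127, against 126, 133 and 175 in WT D-F (4.49). Wnt4, a WNT ligand, was at 114, 199.7 and 123 in Mfn1-/- MEFs against 12.8, 14.5 and 16.04 in WT A-C (3.21). Wnt4 in Mfn2-/- MEFs was at 670.0, 736 and 904, against 15.6, 13.97 and 24.5 in WT D-F (5.37). Tgfb2, a TGF-beta ligand, was at 1238, 1296 and 1900 in Mfn1-/- MEFs against 409, 276 and 340.3 in WT A-C (2.10). Tgfb2 in Mfn2-/- MEFs was at 582, 623 and 686, against 239, 228 and 284 in WT D-F (1.33). A WNT and a TGF-beta ligand were thus higher in both lines. The receptor genes Fgfr3, Egfr and Fzd5 had effects of 2.27 and 4.26, 1.31 and 1.55, and 1.33 and 1.34. Metabolic genes of the class were Mgst1, a microsomal glutathione transferase (3.10 and 5.44), and Slc16a3, a lactate exporter (4.32 and 5.72). The rule for naming genes also took Pmaip1, a p53 target (2.39 and 2.29), Mylk, myosin light chain kinase (2.11 and 2.83), the positional regulators Lhx9 (3.23 and 2.39) and Pax3 (1.05 and 2.49), the imprinted Ppp1r9a (4.48 and 5.47) and the Y-linked demethylase gene Kdm5d (1.35 and 1.08).

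Genes lower in both lines were led by transcription factors of embryonic position. Tbx5 (ENSMUSG00000018263, chromosome 5, 119832668 to 119885219), a T-box factor of forelimb and heart, had 0, 0 and 0 reads in Mfn1-/- MEFs against 310.2, 203 and 228 in WT A-C (at least 195-fold lower), and 0, 0 and 0 in Mfn2-/- MEFs against 216, 208 and 206 in WT D-F (at least 209-fold lower). Tbx3, which lies 147943 bases away on chromosome 5, was at 0, 1.23 and 0 in Mfn1-/- MEFs against 357, 313 and 290.0 in WT A-C (752-fold lower (95% counting interval 135 to 29710)). Tbx3 in Mfn2-/- MEFs was at 0, 0 and 0, against 234, 219 and 212 in WT D-F (at least 221-fold lower). Reads of both T-box genes were absent or nearly so in all 6 knockout libraries. The homeobox gene Lhx8 was at 0, 2.45 and 1.29 in Mfn1-/- MEFs against 776, 715 and 1173 in WT A-C (794-fold lower (95% counting interval 272 to 3854)). Lhx8 in Mfn2-/- MEFs was at 0, 0 and 1.06, against 277, 263 and 322 in WT D-F (864-fold lower (95% counting interval 155 to 34160)). Alx4, a homeobox gene of limb and skull, was at 1.2, 3.68 and 1.29 in Mfn1-/- MEFs against 1183, 1213 and 1234 in WT A-C (-8.72). Alx4 in Mfn2-/- MEFs was at 0, 0 and 1.06, against 414, 457 and 504 in WT D-F (1372-fold lower (95% counting interval 246 to 54220)). Mab21l1 was at 0, 0 and 1.29 in Mfn1-/- MEFs against 679, 704 and 851 in WT A-C (1889-fold lower (95% counting interval 339 to 74650)). Mab21l1 in Mfn2-/- MEFs was at 1.06, 0 and 3.19, against 406, 418 and 476 in WT D-F (-7.72).

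A total of 6 genes were off (at most 3 reads over the 3 libraries) in both knockout lines while on (a mean of at least 100) in both WT sets: Tbx3, Tbx5, Lhx8, Irx1, Galnt13 and Klra4. Irx1, a homeobox gene, was at 1.2, 0 and 2.58 in Mfn1-/- MEFs against 192, 213 and 215 in WT A-C (169-fold lower (95% counting interval 57.6 to 821)). Irx1 in Mfn2-/- MEFs was at 0, 0 and 0, against 246, 236 and 255 in WT D-F (at least 245-fold lower). Galnt13, a glycosyltransferase gene, was at 0 reads in all knockout libraries, against 219, 230.4 and 225 in WT A-C and 95.4, 109.6 and 128 in WT D-F (at least 181-fold lower and at least 111-fold lower). Klra4, of a family of natural killer cell receptors, was at 1.2, 2.45 and 0 in Mfn1-/- MEFs against 287, 311 and 308 in WT A-C (245-fold lower (95% counting interval 83.7 to 1191)). Klra4 in Mfn2-/- MEFs was at 0, 0 and 0, against 242, 247 and 227 in WT D-F (at least 237-fold lower). The reverse, off in both WT sets and on in both knockout lines, was met by 0 genes. Off in Mfn2-/- MEFs alone were 30 genes, and off in Mfn1-/- MEFs alone were 2, Akr1e1 and Pitx1. Pitx1, a homeobox gene of the hindlimb, was at 1.2, 0 and 0 in Mfn1-/- MEFs against 859.5, 668 and 642 in WT A-C (1690-fold lower (95% counting interval 303 to 66750)). Pitx1 in Mfn2-/- MEFs was at 468, 494 and 531, against 479, 492 and 584 in WT D-F (-0.06, adjusted p = 0.918).

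Of 39 non-Hox positional regulators measured, 17 fell in both lines and 3 rose in both, and their medians were -1.46 and -1.56, beside -0.02 and -0.02 over all genes. Of 27 Hox genes, 7 fell in both and 3 rose in both. Over all genes 4.81% fell and 5.42% rose in both lines. On chromosome 15, Hoxc8, Hoxc6, Hoxc5 and Hoxc4 fell together. Hoxc9 was instead lower in Mfn1-/- and higher in Mfn2-/- MEFs, a class that held 0.595% of all genes. Hoxc8 was at 0, 0 and 1.29 in Mfn1-/- MEFs against 203, 125 and 186 in WT A-C (427-fold lower (95% counting interval 76.4 to 16900)). Hoxc8 in Mfn2-/- MEFs was at 1.06, 4.53 and 3.19, against 167, 164 and 161 in WT D-F (-5.51). Hoxc6 was at 2.4, 0 and 2.58 in Mfn1-/- MEFs against 403, 306 and 353 in WT A-C (-7.26). Hoxc6 in Mfn2-/- MEFs was at 36.2, 28.98 and 44.6, against 334, 352 and 326 in WT D-F (-3.19). Hoxc4 was at 0, 0 and 0 in Mfn1-/- MEFs against 227, 161 and 124 in WT A-C (at least 126-fold lower). Hoxc4 in Mfn2-/- MEFs was at 35.1, 28.1 and 34, against 219, 202 and 233 in WT D-F (-2.72). Hoxc6 and Hoxc4 thus kept a low level in Mfn2-/- MEFs that was missing or nearly missing in Mfn1-/- MEFs, and the difference between the effects was called for both (-4.07 and -4.66, adjusted p = 4.95e-06 and 6.33e-06). Twist1, a basic helix-loop-helix factor of mesenchyme, was at 305, 201 and 301 in Mfn1-/- MEFs against 1113, 858 and 1125 in WT A-C (-1.95). Twist1 in Mfn2-/- MEFs was at 152, 131 and 134, against 853, 840.5 and 1028 in WT D-F (-2.69).

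The leader of the class by its rank was Apbb1ip (ENSMUSG00000026786, chromosome 2, 22774094 to 22875653), which encodes RIAM, an adaptor between RAP1 and integrins. It was at 6.01, 1.23 and 2.58 in Mfn1-/- MEFs against 1294, 1474 and 1947 in WT A-C, a log2 fold change of -8.66 (SE 0.59, adjusted p = 1.08e-12). Apbb1ip in Mfn2-/- MEFs was at 0, 0 and 0, against 453, 514 and 529 in WT D-F, where it was at least 497-fold lower. Its promoter and that of Lhx8 are shown as those of genes that were near absence in both lines (RefSeq, GRCm38.p6, Apbb1ip chr2:22774077-22774376, plus strand; Lhx8 chr3:154330511-154330810, minus strand). Neither held a match to any of the 7 motifs searched, so no base is in capitals.
Apbb1ip: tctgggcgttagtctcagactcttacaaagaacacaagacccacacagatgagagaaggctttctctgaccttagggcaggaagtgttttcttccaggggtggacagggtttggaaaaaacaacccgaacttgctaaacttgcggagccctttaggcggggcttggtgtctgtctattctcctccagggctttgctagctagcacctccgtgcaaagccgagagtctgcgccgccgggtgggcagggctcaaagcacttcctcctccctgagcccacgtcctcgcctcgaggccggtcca
Lhx8: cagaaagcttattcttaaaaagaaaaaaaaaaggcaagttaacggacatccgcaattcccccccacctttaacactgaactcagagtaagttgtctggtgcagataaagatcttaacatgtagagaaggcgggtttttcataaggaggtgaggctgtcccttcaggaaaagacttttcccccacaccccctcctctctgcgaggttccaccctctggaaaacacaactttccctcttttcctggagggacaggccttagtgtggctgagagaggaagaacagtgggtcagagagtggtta

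Some genes of surface and matrix proteins were lower in both lines. Il1rl1, the receptor of interleukin-33, was at 54.1, 67.4 and 77.4 in Mfn1-/- MEFs against 8335, 8741 and 6638 in WT A-C (-6.88). Il1rl1 in Mfn2-/- MEFs was at 3.19, 0 and 1.06, against 2786, 2862 and 2987 in WT D-F (-10.45). Cspg4, the NG2 proteoglycan, was at 4.81, 9.8 and 6.45 in Mfn1-/- MEFs against 385, 349.6 and 246 in WT A-C (-5.37). Cspg4 in Mfn2-/- MEFs was at 0, 0.906 and 0, against 308, 299 and 322 in WT D-F (927-fold lower (95% counting interval 166 to 36660)). For Il1rl1 the difference lost its call without Mfn2-/- B (adjusted p = 0.015), and for Cspg4 the difference lost its call without Mfn1-/- B (adjusted p = 0.0106). Cd34 was at 885, 759.8 and 889 in Mfn1-/- MEFs against 5640, 5704 and 5474 in WT A-C (-2.73). Cd34 in Mfn2-/- MEFs was at 709, 744 and 566, against 2614, 2557 and 2630 in WT D-F (-1.96). Ogn, a small proteoglycan, was at 294, 221 and 1226 in Mfn1-/- MEFs against 2457, 2393 and 6917 in WT A-C (-3.00). Ogn in Mfn2-/- MEFs was at 68.1, 57.97 and 60.6, against 1592, 1599 and 2073 in WT D-F (-4.79). Col7a1, the collagen of anchoring fibrils, had effects of -2.87 and -6.93. Its neighbour Pfkfb4, a regulator of glycolysis, was also lower (-0.85 and -1.90). Of 25 growth factor receptors and surface markers, 6 fell and 3 rose in both, and of the 23 collagens, 6 fell and 3 rose, against 4.81% and 5.42% of all genes. Loxl1 and Itga7, which encode a lysyl oxidase and an integrin chain, had effects of -1.04 and -1.13, and -2.49 and -1.65. Of 11 fibroblast markers, 3 fell and 0 rose in both lines, with medians of 0.10 in the Mfn1-/- and -2.21 in the Mfn2-/- effect. One that fell, S100a4, was at 636, 931 and 681 in Mfn1-/- MEFs against 4085, 4464 and 4347 in WT A-C (-2.54). S100a4 in Mfn2-/- MEFs was at 29.8, 33.5 and 27.6, against 136, 155 and 154 in WT D-F (-2.26), and its levels in the 2 WT sets, which were scaled separately, lay far apart (with the WT sets crossed after TMM, its Mfn1-/- effect was 1.6).

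Some genes of cholesterol supply were lower in both lines. Of 24 measured, 9 fell in both, against 4.81% of all genes, and 0 rose in either line. The medians were -1.04 in the Mfn1-/- and -0.64 in the Mfn2-/- effect. Nsdhl, a sterol dehydrogenase, was at 364, 519.6 and 485 in Mfn1-/- MEFs against 1435, 1544 and 1386 in WT A-C (-1.69). Nsdhl in Mfn2-/- MEFs was at 278, 293 and 274, against 607, 584 and 644 in WT D-F (-1.12). All Mfn1-/- and Mfn2-/- libraries lay under their WT for Nsdhl, as the naming rule required. Of the adipocyte lipid genes, 4 of 18 fell in both. Fabp5, a fatty acid binding protein, was at 563, 572 and 599 in Mfn1-/- MEFs against 2931, 3384 and 2648 in WT A-C (-2.36). Fabp5 in Mfn2-/- MEFs was at 537, 512 and 508, against 2523, 2587 and 2603 in WT D-F (-2.31). Elovl6, a fatty acid elongase, had effects of -1.15 and -1.22.

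Signalling genes lower in both lines included Dkk2, a WNT modulator, at 131, 24.5 and 95.5 in Mfn1-/- MEFs against 1210, 1193 and 1187 in WT A-C (-4.12). Dkk2 in Mfn2-/- MEFs was at 1.06, 2.72 and 4.25, against 122, 124 and 162 in WT D-F (-5.31). Angpt1, an angiopoietin, was at 14.4, 7.35 and 6.45 in Mfn1-/- MEFs against 310.2, 177 and 197 in WT A-C (-4.49). Angpt1 in Mfn2-/- MEFs was at 1.06, 0 and 0, against 167, 185 and 163 in WT D-F (511-fold lower (95% counting interval 91.3 to 20220)). Vegfd was at 238, 121 and 288 in Mfn1-/- MEFs against 798, 1074 and 2253 in WT A-C (-2.61). Vegfd in Mfn2-/- MEFs was at 35.1, 32.6 and 34, against 421, 382 and 443 in WT D-F (-3.57). All 3 encode secreted ligands or modulators. The BMP and activin regulators Tgfbr3 (-0.76 and -1.13) and Fst (-1.27 and -1.56), the prostaglandin synthase Ptges (-2.11 and -6.00), the interferon regulatory factor Irf1 (-0.77 and -0.61), the glutathione synthetase Gss (-0.76 and -0.93), the asparaginyl-tRNA synthetase Nars (-1.04 and -1.17) and the thrombospondin Thbs3 (-1.30 and -1.16) were also lower in both. Of 16 regulators that restrain adipogenesis, 4 fell in both, against 4.81% of all genes. Among them Zfp521, a zinc finger antagonist of EBF1, was at 171, 75.98 and 25.8 in Mfn1-/- MEFs against 1194, 1591 and 2544 in WT A-C (-4.58). Zfp521 in Mfn2-/- MEFs was at 105, 105 and 87.1, against 374, 380.5 and 432 in WT D-F (-1.99).

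Genes higher in Mfn1-/- and lower in Mfn2-/- MEFs were led by Col15a1, Asb4, Rian, Meg3, Dpt, Pkp1 and Cdh13. Col15a1, a collagen of basement membrane zones (ENSMUSG00000028339, chromosome 4, 47208161 to 47313167), was at 17040, 8191 and 33890 in Mfn1-/- MEFs against 647, 368 and 459 in WT A-C, a log2 fold change of 5.13 (SE 0.44, adjusted p = 2.69e-10). Col15a1 in Mfn2-/- MEFs was at 6.38, 4.53 and 9.56, against 308, 319 and 420.3 in WT D-F, a log2 fold change of -5.52 (SE 0.44, adjusted p = 1.84e-11). The difference between its effects was 10.65 (SE 0.62, adjusted p = 8.43e-14). Every gene of the 2 opposite classes had its difference called, which follows in part from the way the classes were made.

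Meg3 and Rian, maternally expressed noncoding RNAs that lie 32213 bases apart on chromosome 12, moved together. Meg3 (ENSMUSG00000021268, chromosome 12, 109541001 to 109571726) was at 5109, 4986 and 7382 in Mfn1-/- MEFs against 679, 325 and 299 in WT A-C. Meg3 in Mfn2-/- MEFs was at 1.06, 0 and 1.06, against 172, 192 and 178 in WT D-F. Its log2 fold change in Mfn1-/- MEFs was 3.82 (SE 0.49, adjusted p = 4.51e-07), and in Mfn2-/- MEFs it was 269.6-fold lower (95% counting interval 74.3 to 2232). Rian was at 5461, 6679 and 7920 in Mfn1-/- MEFs against 692, 405 and 342 in WT A-C (3.85 (SE 0.56, adjusted p = 3.71e-06)). Rian in Mfn2-/- MEFs was at 8.51, 8.15 and 6.38, against 349, 339 and 288 in WT D-F (-5.24 (SE 0.56, adjusted p = 7.58e-09)). Asb4, an imprinted gene on chromosome 6 for an ankyrin and SOCS box protein, was at 2408, 5737 and 3882 in Mfn1-/- MEFs against 129.6, 188 and 97.98 in WT A-C (4.81). Asb4 in Mfn2-/- MEFs was at 0, 1.81 and 3.19, against 192, 225 and 192 in WT D-F (-6.48). Of 26 imprinted genes measured, 3 were in this class, 3 rose in both lines, 2 fell in both and 1 was lower in Mfn1-/- and higher in Mfn2-/- MEFs. Over all genes these classes held 1.84%, 5.42%, 4.81% and 0.595%. The promoters of Meg3 and Rian are shown as a pair of neighbours that moved apart between the lines (RefSeq, GRCm38.p6, Meg3 chr12:109540746-109541045, plus strand, the upstream of 2 starts in the table; Rian chr12:109603695-109603994, plus strand). Meg3 held 1 match to TATAAA on each strand in 1 overlapping run and 1 match to CCAAT, and Rian held 1 match to CATTCC.
Meg3: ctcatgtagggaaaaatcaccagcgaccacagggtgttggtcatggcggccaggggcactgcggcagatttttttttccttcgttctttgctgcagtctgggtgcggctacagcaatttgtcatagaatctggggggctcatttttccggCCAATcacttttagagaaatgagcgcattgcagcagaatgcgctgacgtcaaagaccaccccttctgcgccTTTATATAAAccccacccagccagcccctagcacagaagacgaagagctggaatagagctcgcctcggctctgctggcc
Rian: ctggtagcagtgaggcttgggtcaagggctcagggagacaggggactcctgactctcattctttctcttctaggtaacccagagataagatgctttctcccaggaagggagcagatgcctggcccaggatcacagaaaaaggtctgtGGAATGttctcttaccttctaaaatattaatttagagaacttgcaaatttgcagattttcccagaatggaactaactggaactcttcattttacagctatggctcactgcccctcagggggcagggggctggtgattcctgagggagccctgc

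The other leaders of this class encode proteins of matrix and cell contact. Dpt, dermatopontin, was at 2098, 2566 and 4260 in Mfn1-/- MEFs against 299.6, 293 and 319.5 in WT A-C (3.22). Dpt in Mfn2-/- MEFs was at 3.19, 3.62 and 0, against 119.7, 136 and 136 in WT D-F (-5.61). Pkp1, a desmosomal plakophilin, was at 2142, 2979 and 1613 in Mfn1-/- MEFs against 153, 212 and 131 in WT A-C (3.74). Pkp1 in Mfn2-/- MEFs was at 32.97, 49.8 and 32.9, against 274, 288 and 237 in WT D-F (-2.78). Cdh13, a cadherin without a cytoplasmic tail, was at 708, 627 and 955 in Mfn1-/- MEFs against 112, 152 and 156 in WT A-C (2.43). Cdh13 in Mfn2-/- MEFs was at 0, 0 and 0, against 114, 125 and 119 in WT D-F (at least 118-fold lower). In each, the 3 Mfn1-/- libraries lay above WT A-C and the 3 Mfn2-/- libraries lay below WT D-F, as the naming rule required.

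Pparg, the master regulator of adipocyte differentiation, was in this class. It was at 531, 321 and 471 in Mfn1-/- MEFs against 79.7, 95.7 and 161 in WT A-C (2.00 (SE 0.27, adjusted p = 8.13e-07)). Pparg in Mfn2-/- MEFs was at 0, 0 and 0, against 61.3, 69.9 and 67.03 in WT D-F, where it was at least 65.7-fold lower. No read of Pparg was counted in any of the 3 Mfn2-/- libraries. Sox9, a chondrogenic factor that restrains adipogenesis, was at 827, 1012 and 872 in Mfn1-/- MEFs against 489, 356 and 304 in WT A-C (1.26). Sox9 in Mfn2-/- MEFs was at 38.3, 22.6 and 45.7, against 562, 546 and 503 in WT D-F (-3.94). The homeobox genes Meis1 and En1 moved likewise. Meis1 was at 1949, 1722 and 1721 in Mfn1-/- MEFs against 407, 317 and 423 in WT A-C (2.24). Meis1 in Mfn2-/- MEFs was at 63.8, 74.3 and 106, against 237, 255 and 268 in WT D-F (-1.66). En1 was at 379, 384 and 392.2 in Mfn1-/- MEFs against 184, 170.3 and 176 in WT A-C (1.12). En1 in Mfn2-/- MEFs was at 3.19, 3.62 and 4.25, against 107, 102 and 120.5 in WT D-F (-4.57).

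Secreted and signalling genes of the class included Cxcl12, a chemokine of stromal cells, at 30310, 18860 and 51650 in Mfn1-/- MEFs against 8423, 9371 and 14060 in WT A-C (1.58). Cxcl12 in Mfn2-/- MEFs was at 1409, 1331 and 2034, against 3983, 4088 and 4120 in WT D-F (-1.38). Angptl2 was at 3574, 3648 and 4582 in Mfn1-/- MEFs against 1810, 1861 and 1679 in WT A-C (1.13). Angptl2 in Mfn2-/- MEFs was at 481, 469 and 364, against 1521, 1508 and 1389 in WT D-F (-1.76). The WNT receptor Fzd8 was at 331, 249 and 477 in Mfn1-/- MEFs against 169, 168 and 198 in WT A-C (0.93). Fzd8 in Mfn2-/- MEFs was at 17.02, 15.4 and 14.9, against 164, 187 and 155 in WT D-F (-3.34). These 3 genes encode a chemokine, a secreted angiopoietin-like protein and a receptor. Ccnd2, cyclin D2, had effects of 1.66 and -1.69, and Gsto1, a glutathione transferase, had effects of 1.35 and -1.96.

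Genes lower in Mfn1-/- and higher in Mfn2-/- MEFs were the smallest class, and WNT ligands stood among them. Igfbp5, an insulin-like growth factor binding protein (ENSMUSG00000026185, chromosome 1, 72857932 to 72874884), was at 2.4, 2.45 and 41.3 in Mfn1-/- MEFs against 360.2, 156 and 273 in WT A-C (-4.98 (SE 0.91, adjusted p = 9.03e-05)). Igfbp5 in Mfn2-/- MEFs was at 1619, 1629 and 2110, against 48.6, 47.3 and 50.7 in WT D-F (5.15 (SE 0.91, adjusted p = 2.92e-05)). Its difference between the effects was -10.13 (SE 1.28, adjusted p = 4.02e-07). Igfbp4 and Igfbp5, related binding proteins, thus differed in class. The promoter of Igfbp5 held 1 match to CATTCC and is shown as that of the leader of this class (RefSeq, GRCm38.p6, chr1:72874816-72875115, minus strand).
Igfbp5: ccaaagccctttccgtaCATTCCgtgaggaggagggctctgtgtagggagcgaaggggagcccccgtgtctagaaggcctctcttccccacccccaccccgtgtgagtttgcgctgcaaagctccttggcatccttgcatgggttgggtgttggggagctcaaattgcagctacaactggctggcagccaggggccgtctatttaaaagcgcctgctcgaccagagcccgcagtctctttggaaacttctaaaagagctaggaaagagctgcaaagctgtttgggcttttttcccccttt

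Of 34 WNT ligands, receptors and modulators measured, 5 were lower in Mfn1-/- and higher in Mfn2-/- MEFs, 6 rose in both lines, 2 fell in both and 1 was in the remaining class. Over all genes the shares of these classes were 0.595%, 5.42%, 4.81% and 1.84%. Wnt9a was at 55.3, 35.5 and 36.1 in Mfn1-/- MEFs against 408, 245 and 190.3 in WT A-C (-2.66). Wnt9a in Mfn2-/- MEFs was at 552, 603 and 463, against 118, 95.7 and 142 in WT D-F (2.19). Wnt5a was at 132, 40.4 and 24.5 in Mfn1-/- MEFs against 194, 217 and 629.5 in WT A-C (-2.53). Wnt5a in Mfn2-/- MEFs was at 974, 962 and 942, against 70.1, 73.1 and 98.7 in WT D-F (3.57), and the Mfn1-/- effect lost its call without Mfn1-/- C (adjusted p = 0.0101). Axin2, a target of WNT and beta-catenin signalling, was at 13.2, 11.03 and 14.2 in Mfn1-/- MEFs against 70.1, 23.4 and 43.4 in WT A-C (-1.63, adjusted p = 1.06e-04). Axin2 in Mfn2-/- MEFs was at 394, 376 and 469, against 16.5, 12.9 and 21.7 in WT D-F (4.54, adjusted p = 1.01e-13). Other WNT genes lay in other classes, such as Wnt4 among the rises in both lines and Wnt10b among the falls in both.

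Ptprq, a phosphatase of the inner ear and kidney, was at 0, 2.45 and 0 in Mfn1-/- MEFs against 109, 125 and 109 in WT A-C (136-fold lower (95% counting interval 37.5 to 1128)). Ptprq in Mfn2-/- MEFs was at 328, 309.8 and 283, against 34.1, 38.7 and 37.1 in WT D-F (3.03). Mycn, a MYC family factor, was at 4.81, 2.45 and 5.16 in Mfn1-/- MEFs against 156, 206 and 99.7 in WT A-C (-4.90). Mycn in Mfn2-/- MEFs was at 452, 460.1 and 561, against 84.7, 81.7 and 76.1 in WT D-F (2.58). Dhrs3, a retinal reductase, was at 26.4, 11.03 and 32.2 in Mfn1-/- MEFs against 144, 138 and 332 in WT A-C (-3.09). Dhrs3 in Mfn2-/- MEFs was at 359.5, 349.6 and 393, against 67.1, 53.7 and 57.1 in WT D-F (2.62). The last leader, Plagl1, an imprinted zinc finger gene, showed the widest spread among WT A-C. It was at 150.3, 30.6 and 63.2 in Mfn1-/- MEFs against 196, 167 and 846 in WT A-C (-2.17). Plagl1 in Mfn2-/- MEFs was at 1975, 1786 and 2285, against 19.5, 24.7 and 23.6 in WT D-F (6.42), and the Mfn1-/- effect lost its call without Mfn1-/- B, Mfn1-/- C or WT C (adjusted p = 0.021 to 0.0814). With the WT sets crossed the Mfn1-/- effect on Plagl1 was 0.83. Further members were Id3, an inhibitor of basic helix-loop-helix factors (-1.12 and 1.48), and the positional regulators Tbx18 (-2.66 and 0.95) and Meis2 (-0.77 and 1.52).

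The difference between the 2 effects was called in 2994 genes (20.9%), higher in Mfn1-/- in 1763 (12.3%) and lower in 1231 (8.61%). Of the 1461 genes that moved alike, 324 (22.2%) had unequal effects, 156 with a more positive and 168 with a more negative Mfn1-/- effect. For 252 of the genes higher in both lines and 299 of those lower in both, the 95% interval of the difference lay within 1 log2 unit either way. Among genes called in the Mfn1-/- effect alone the difference was called in 541 of 1398 (38.7%), among those called in the Mfn2-/- effect alone in 1613 of 3270 (49.3%), and among those called in neither in 168 of 7816 (2.15%).

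The most unequal falls named by the rule were, apart from Hoxc4, larger in Mfn2-/- MEFs. Ndn, necdin, an imprinted gene, was at 533, 469 and 460.5 in Mfn1-/- MEFs against 2107, 2070 and 1902 in WT A-C (-2.05). Ndn in Mfn2-/- MEFs was at 0, 0 and 0, against 1013, 1037 and 949 in WT D-F (at least 992-fold lower). Col1a2, a chain of type I collagen, was at 13830, 22560 and 34850 in Mfn1-/- MEFs against 124000, 145400 and 186600 in WT A-C (-2.76). Col1a2 in Mfn2-/- MEFs was at 182, 182 and 81.8, against 71040, 72760 and 76980 in WT D-F (-9.03). Npr3, a natriuretic peptide clearance receptor, was at 228, 51.5 and 63.2 in Mfn1-/- MEFs against 466, 636 and 1046 in WT A-C (-2.89). Npr3 in Mfn2-/- MEFs was at 0, 0 and 0, against 751, 665 and 671 in WT D-F (at least 693-fold lower). Col1a2 RNA therefore fell in both lines and by far more in Mfn2-/- MEFs, where the difference between the effects was 6.27 (SE 0.64, adjusted p = 6.48e-09). Ebf1, an early adipogenic factor, was at 91.4, 77.2 and 120.0 in Mfn1-/- MEFs against 272, 306 and 397 in WT A-C (-1.75). Ebf1 in Mfn2-/- MEFs was at 0, 0 and 0, against 183, 156 and 155 in WT D-F (at least 164-fold lower). Scara3 was at 438, 444 and 481 in Mfn1-/- MEFs against 1067, 978 and 957 in WT A-C (-1.14). Scara3 in Mfn2-/- MEFs was at 0, 0 and 0, against 337, 258 and 294 in WT D-F (at least 296-fold lower), and the Mfn1-/- effect lost its call without Mfn1-/- A, Mfn1-/- B, Mfn1-/- C, WT A, WT B or WT C (adjusted p = 0.0111 to 0.0189).

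Among the genes that the rule took for unequal effects, Aldh1a1, Podxl and Aplp1 rose further in Mfn2-/- MEFs. Aldh1a1, a retinaldehyde dehydrogenase, was at 114, 75.98 and 137 in Mfn1-/- MEFs against 2.12, 5.57 and 14.7 in WT A-C (3.96). Aldh1a1 in Mfn2-/- MEFs was at 3880, 3908 and 3006, against 0, 1.07 and 1.81 in WT D-F (3690-fold higher (95% counting interval 1262 to 17890)). Aplp1, an amyloid precursor-like protein, was at 226, 186 and 219 in Mfn1-/- MEFs against 1.06, 4.45 and 3.04 in WT A-C (5.89). Aplp1 in Mfn2-/- MEFs was at 2618, 2583 and 1990, against 0.973, 2.15 and 0 in WT D-F (2457-fold higher (95% counting interval 840.5 to 11920)). Podxl, podocalyxin, was at 341, 441 and 277 in Mfn1-/- MEFs against 143, 145 and 97.1 in WT A-C (1.45). Podxl in Mfn2-/- MEFs was at 6360, 6436 and 6533, against 71.03, 88.1 and 78.8 in WT D-F (6.33). In these 3 genes every Mfn2-/- library stood above every Mfn1-/- library, on scales set separately. Rises that were larger in Mfn1-/- MEFs included those of the troponin gene Tnnt2, with a difference of 5.14, and of Col2a1, the cartilage collagen. Col2a1 was at 1440, 2230 and 2041 in Mfn1-/- MEFs against 30.8, 35.6 and 36.9 in WT A-C (5.73). Col2a1 in Mfn2-/- MEFs was at 150.0, 124 and 89.2, against 26.3, 29.02 and 32.6 in WT D-F (1.98), and the Mfn2-/- effect lost its call without Mfn2-/- A (adjusted p = 0.012).

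For 24 of the 121 genes of the 4 classes that the naming rule took, at least 1 of the 2 effects lost its call when a library was left out, and 97 kept both calls in all 12 such fits. Those not yet given were close to the threshold. Thbs1 and Tnc are matricellular genes of the class higher in Mfn1-/- and lower in Mfn2-/- MEFs. For Thbs1 (1.64 and -1.33), the Mfn1-/- effect lost its call without Mfn1-/- C or WT A (adjusted p = 0.011 to 0.0159) and the Mfn2-/- effect lost its call without Mfn2-/- A, Mfn2-/- B, Mfn2-/- C, WT D or WT E (adjusted p = 0.0106 to 0.0196). For Tnc (1.14 and -1.06), the Mfn1-/- effect lost its call without Mfn1-/- C, WT A or WT B (adjusted p = 0.0221 to 0.0406) and the Mfn2-/- effect lost its call without Mfn2-/- A, Mfn2-/- B, Mfn2-/- C, WT D, WT E or WT F (adjusted p = 0.01 to 0.0282). For Bnip3 (1.53 and -2.31), the Mfn1-/- effect lost its call without Mfn1-/- B, Mfn1-/- C, WT A, WT B or WT C (adjusted p = 0.0153 to 0.0368). For Igf2r (1.36 and -1.84), the Mfn1-/- effect lost its call without WT A or WT B (adjusted p = 0.011 to 0.0118). For Tgfbr2 (0.60 and -0.75), the Mfn1-/- effect lost its call without Mfn1-/- A, Mfn1-/- C, WT A, WT B or WT C (adjusted p = 0.011 to 0.0654). These are a mitophagy receptor and the receptors of IGF2 and TGF-beta.

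The kinase inhibitor Cdkn2b had effects of 0.69 and -0.77, and the Mfn1-/- effect lost its call without Mfn1-/- C or WT C (adjusted p = 0.0101 to 0.0111). The basement membrane genes were similar. For Col18a1 (0.72 and -3.45), the Mfn1-/- effect lost its call without Mfn1-/- A, Mfn1-/- C or WT C (adjusted p = 0.0107 to 0.0362). For Nid2 (-1.29 and 4.52), the Mfn1-/- effect lost its call without Mfn1-/- A, Mfn1-/- B, WT A or WT C (adjusted p = 0.0146 to 0.0179). For Fbln1 (-0.81 and 0.88), the Mfn1-/- effect lost its call without Mfn1-/- A, Mfn1-/- B, WT A or WT C (adjusted p = 0.0112 to 0.0331). For Fbln2 (1.78 and 0.68), the Mfn2-/- effect lost its call without Mfn2-/- A, Mfn2-/- B, Mfn2-/- C, WT D, WT E or WT F (adjusted p = 0.011 to 0.019). For Wnt10b (-3.65 and -1.55), a ligand that restrains adipogenesis, the Mfn2-/- effect lost its call without Mfn2-/- A, Mfn2-/- B, Mfn2-/- C, WT D or WT F (adjusted p = 0.0105 to 0.0173) and the difference lost its call without Mfn1-/- B, Mfn1-/- C, WT A, WT B, Mfn2-/- A, Mfn2-/- B, Mfn2-/- C, WT D, WT E or WT F (adjusted p = 0.0134 to 0.0426). For Vegfa (1.46 and 0.74), the Mfn2-/- effect lost its call without Mfn2-/- A, Mfn2-/- B, WT D or WT F (adjusted p = 0.0136 to 0.0244).

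Calls near the threshold were also found for Hk1, hexokinase (0.52 and -1.35), where the Mfn1-/- effect lost its call without Mfn1-/- A, Mfn1-/- B, WT A, WT B, WT C, Mfn2-/- B, Mfn2-/- C, WT D, WT E or WT F (adjusted p = 0.0103 to 0.0637). For Irs2, an insulin receptor substrate (0.77 and 1.03), the Mfn1-/- effect lost its call without Mfn1-/- A, Mfn1-/- B, Mfn1-/- C, WT A or WT B (adjusted p = 0.011 to 0.036). For Csf1, a macrophage growth factor (-0.97 and -1.60), the Mfn1-/- effect lost its call without Mfn1-/- A, Mfn1-/- C, WT B or WT C (adjusted p = 0.0127 to 0.0356). For Adamts4 (-1.24 and -2.50), the Mfn1-/- effect lost its call without WT C (adjusted p = 0.0106). For Gadd45b (-0.86 and -0.63), the Mfn2-/- effect lost its call without WT F (adjusted p = 0.0113). For Srxn1 (-0.98 and -1.62), the Mfn1-/- effect lost its call without WT A (adjusted p = 0.011). The differences of Wnt4 (-2.16) and Mmp2 (-1.53) were also sensitive. For Wnt4, the difference lost its call without Mfn1-/- A, Mfn1-/- C, WT C, Mfn2-/- C, WT D or WT E (adjusted p = 0.011 to 0.0146), and for Mmp2, the difference lost its call without Mfn1-/- B or WT A (adjusted p = 0.0111 to 0.0115).

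Of 14 genes of mitochondrial fusion and fission, 1 rose and 1 fell in both lines (14.3%, against 12.7% of all genes in any of the 4 classes). The gene that fell, Slc25a46, an outer membrane protein linked to mitofusins, was at 482, 477 and 466 in Mfn1-/- MEFs against 656, 670.2 and 848 in WT A-C (-0.60). Slc25a46 in Mfn2-/- MEFs was at 399.9, 339.7 and 359, against 488, 473 and 532 in WT D-F (-0.44). Its calls were close to the threshold, as the Mfn1-/- effect lost its call without WT C (adjusted p = 0.0132) and the Mfn2-/- effect lost its call without Mfn2-/- B, Mfn2-/- C, WT D, WT E or WT F (adjusted p = 0.0133 to 0.0426). Opa1, which fuses the inner membrane, was at 1539, 1566 and 1455 in Mfn1-/- MEFs against 1740, 1730 and 1533 in WT A-C. Opa1 in Mfn2-/- MEFs was at 1214, 1199 and 1281, against 1113, 1086 and 1002 in WT D-F, and passed in neither line (-0.13 and 0.21, adjusted p = 0.487 and 0.226). Of 7 mitochondrial DNA genes measured, 1 (14.3%), mt-Nd5, fell in both (-0.69 and -0.76), where the Mfn1-/- effect lost its call without Mfn1-/- A, Mfn1-/- B, Mfn1-/- C, WT A, WT C, Mfn2-/- A, Mfn2-/- B, Mfn2-/- C, WT D, WT E or WT F (adjusted p = 0.0106 to 0.0815) and the Mfn2-/- effect lost its call without Mfn2-/- B, Mfn2-/- C or WT D (adjusted p = 0.0129 to 0.0182). None of the 37 nuclear genes of respiratory complexes, the 23 genes of the ER unfolded protein response and the 30 mitotic genes was called in both effects, and 1 of 34 ATF4 response genes and 1 of 31 replication genes was.

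**Figure D3:**
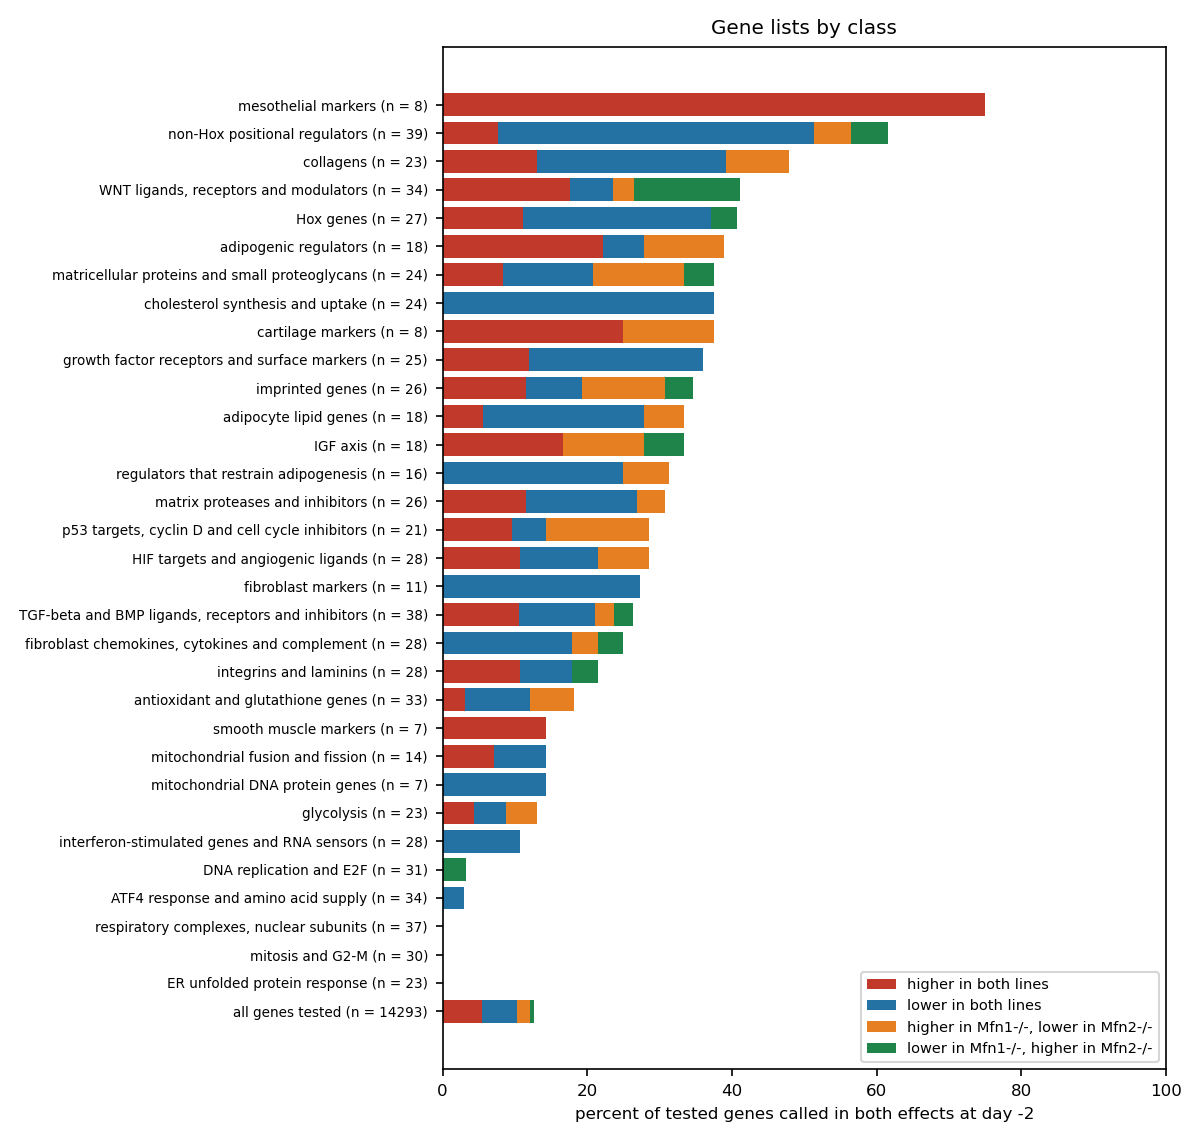
Percent of the tested genes of each list (horizontal axis) that were called in both effects at day -2, stacked by class, with the number tested beside the list name. Lists with fewer than 7 tested genes, such as the cardiac markers, are not drawn. The mesothelial markers, the non-Hox positional regulators and the collagens have the longest bars, and the respiratory, unfolded protein and mitotic lists have none.

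Shared calls were unevenly spread over the chromosomes. On chromosome 18, 79 of 394 tested genes (20.1%) were lower in both lines, against 4.81% of all genes, and the median effects of the chromosome were -0.56 and -0.38. It held 11.5% of the genes lower in both lines and 2.76% of the genes tested. On chromosome 1, 96 of 810 genes (11.9%) were higher in both, against 5.42% of all genes, with medians of 0.28 and 0.26. On the X chromosome, 56 of 448 genes (12.5%) were lower in both, and the medians were -0.25 in the Mfn1-/- and -0.73 in the Mfn2-/- effect. The opposite classes held 7 of 263 and 0 of 85 genes on chromosome 18 (2.66% and 0%, against 2.76% of the genes tested). Without chromosomes 1, 18 and X, the classes held 647, 539, 231 and 78 genes.

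**Figure D4:**
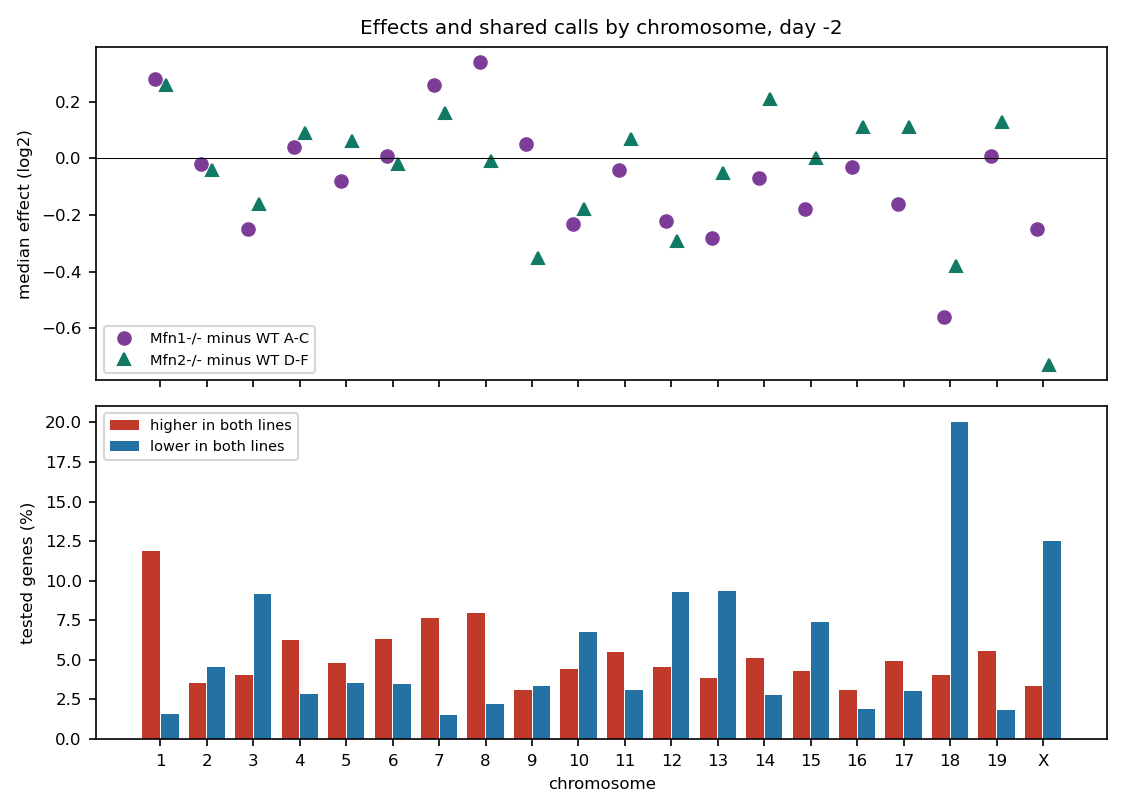
Median Mfn1-/- and Mfn2-/- effect (upper panel, log2) and percent of tested genes higher or lower in both lines (lower panel) at day -2, for the chromosomes with at least 100 tested genes. Among these, chromosome 18 has the lowest median Mfn1-/- effect and the highest share of genes lower in both lines, and chromosome 1 has the highest share of genes higher in both.

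The later days gave libraries whose levels did not enter the day -2 effects. The spread behind all calls was shared over the 36 libraries, so the later calls are not independent of the day -2 calls. In Mfn1-/- MEFs 3068 genes (21.5%) were called at day 0, with 1528 higher (10.7%) and 1540 lower (10.8%), and 3066 (21.5%) at day +3, with 1517 higher (10.6%) and 1549 lower (10.8%). In the libraries labelled Mfn1-/- at day +8, in which Mfn1 RNA stood at the WT level, 7171 genes (50.2%) were called, with 3359 higher (23.5%) and 3812 lower (26.7%). In Mfn2-/- MEFs at day +8, 5448 genes (38.1%) were called, with 2443 higher (17.1%) and 3005 lower (21%). These shares are the backgrounds for the classes of day -2.

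Genes higher in both lines were called higher again in Mfn1-/- MEFs at day 0 in 69.1%, at day +3 in 62.1% and in Mfn2-/- MEFs at day +8 in 63.2% of the 774. Genes lower in both were called lower again in 76.1%, 67.7% and 66.1% of the 687. Genes higher in Mfn1-/- and lower in Mfn2-/- MEFs kept the Mfn1-/- direction in 66.5% at day 0 and 47.9% at day +3, and the Mfn2-/- direction in 59.7% at day +8. For the reverse class the shares were 85.9%, 60.0% and 47.1%. All of these shares were above the background of their direction. In the libraries labelled Mfn1-/- at day +8 the shares were 55.6%, 70.7%, 51.3% and 72.9%. A total of 378, 383, 98 and 32 genes of the classes kept their direction both in Mfn1-/- MEFs at day 0 and in Mfn2-/- MEFs at day +8. These were 48.84%, 55.75%, 37.26% and 37.65% of the classes. Of all genes tested, 4.282%, 5.38%, 1.672% and 0.7066% were called in these directions in both comparisons.

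All 14 leading genes of the alike classes were called again in the same direction in each of these 4 comparisons. Of the 14 leading genes of the opposite classes, all kept the Mfn1-/- direction at day 0, whereas Dpt and Cdh13 did not pass at day +3, and Asb4 and Pkp1 did not keep their lower level in Mfn2-/- MEFs at day +8. In the libraries labelled Mfn1-/- at day +8, Rian, Meg3 and Dpt did not pass, with log2 fold changes of 0.62, 1.13 and 1.54. Pkp1 was higher in Mfn2-/- MEFs at day +8, at a log2 fold change of 1.94 (adjusted p = 4.67e-06). Igfbp5, Dhrs3, Wnt5a, Wnt9a and Plagl1 did not pass in Mfn2-/- MEFs at day +8, with log2 fold changes of -1.06, 0.20, -0.44, 0.90 and 0.25.

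**Figure D5:**
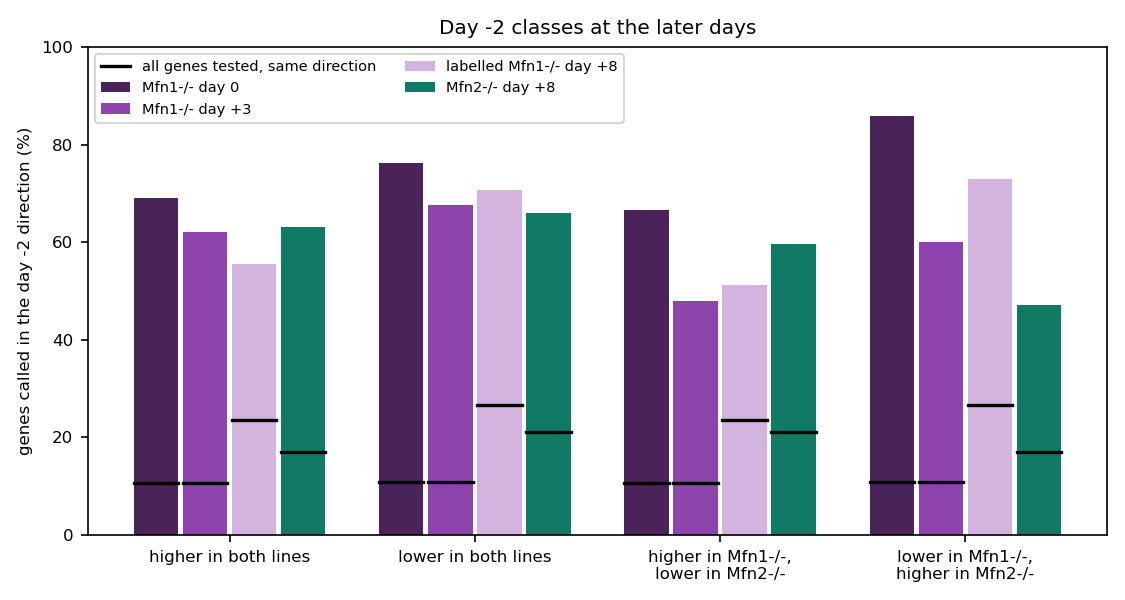
Percent of the genes of each day -2 class that were called again in their day -2 direction (vertical axis) in Mfn1-/- MEFs at day 0 and day +3, in the libraries labelled Mfn1-/- at day +8 and in Mfn2-/- MEFs at day +8, with the share of all tested genes called in that direction marked beside each. Every share exceeds its mark, and the shares of the opposite classes at day +3 and day +8 include the lowest.

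Whether reads were counted by strand is not given in the sources used here, and the exons of 32.4% of tested genes are overlapped by a gene on the other strand, so that reads of the 2 genes cannot be told apart. Among the genes named here this holds, as a percentage of exon length, for Adamts4 (3.56%), Adamts9 (11.99%), Angpt1 (14.16%), Axin2 (3.8%), Bnip3 (22.25%), Ccnd2 (7.86%), Cd34 (2.03%), Cebpa (1.93%), Col15a1 (0.22%), Ebf2 (6.12%), Elovl6 (0.53%), Fgfr3 (13.94%), Fst (2.51%), Fzd5 (17.83%), Gpr39 (39.87%), Gss (15.44%), Hk1 (1.84%), Irf1 (3.4%), Irs2 (2.56%), Itga7 (0.11%), Mab21l1 (39.37%), Meg3 (6.79%), Meis1 (8.51%), Mylk (6.85%), Nid2 (8.45%), Npr3 (3.42%), Pitx1 (6.21%), Plagl1 (0.49%), Slc25a46 (7.06%), Tbx18 (20.56%), Tbx3 (1.74%), Tgfb2 (2.14%), Thbs1 (3.42%), Thbs3 (6.59%), Tnc (2.26%), Usp29 (14.28%), Wnt5a (4.58%) and mt-Nd5 (0.77%).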

How the data were processed

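Gene counts were made by the authors with cutadapt (adapter trimming), STAR (alignment of paired-end reads to GRCm38), SAMtools (sorting) and featureCounts (counting per gene), for which versions are not given in the sources used here. The deposited values are a signal, gene counts divided by 1 factor per library, which was set for each of 6 sets of 6 libraries on its own. One step size in each column gave whole reads for 100% of values (tolerance 0.01 reads). Of 16623 lines, 19 symbols filled 64 to 729 identical lines each. After merging these, 14761 genes remained, and 14727 symbols (99.8%) matched 1 GENCODE vM21 gene.

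Log2 of the value plus 1 was fitted with limma 3.58.1 under R 4.3.3 (trend, robust), with 12 group means over 36 libraries, for 14293 genes that reached 10 in 3 or more libraries. Effects were Mfn1-/- minus WT A-C, Mfn2-/- minus WT D-F, and the first minus the second, each within libraries scaled together. P values were two-sided and adjusted by the Benjamini-Hochberg method over all genes tested, with a threshold of 0.01. Fold changes are on the log2(value + 1) scale, which understates the change of low genes. A group with 0 reads was set at a floor of 3 reads in all, which bounds the fold from below, and a group with 1 to 3 reads is given by its ratio and the 95% interval of that ratio. Intervals and floors cover counting error only. The pipeline was tested on simulated data.

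Libraries were grouped by GEO's labels. Mfn2-/- columns are lettered A to C but their labels D to F, so they were mapped to their group without pairing. Replicate letters were not used to pair Mfn1-/- with WT libraries in the main fit. The correlations of same-letter deviations were 0.042, 0.199 and 0.220, each the highest for its Mfn1-/- library. The letter was therefore also fitted as a block.

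Named were, for each class, the 7 genes with the largest smaller effect of the 2 (called in both, groups not overlapping, higher group averaging 100 or more in both effects, no clone name), up to 2 genes per list and class at that level, the 4 most positive and the 4 most negative called differences among genes that moved alike, Mfn1 and Mfn2, in all 125, of which 2 are not reported here. Further genes of the lists and the genes off in a line were named after their values were seen. The members and the gene lists were chosen with earlier results of these data known, and no list was tested as a set.

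Alternatives were pseudocounts of 0.5 and 5, no filter or one at 50, TMM (edgeR 4.0.16), only the 12 libraries of day -2, recovered reads under DESeq2 1.42.0 and edgeR, the WT sets crossed, no genes overlapped on the opposite strand, the replicate letter as a block and each library left out in turn. Added after seeing the data were each block of 6 libraries fitted alone and the analysis without chromosomes 1, 18 and X.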

Additional observations from a re-analysis of the deposited data

Results flagged for a closer look

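The difference between the Mfn1-/- and the Mfn2-/- effect, tested by limma as an interaction (Mfn1-/- minus Mfn2-/- on the log2 scale), was called in 2994 genes, 65 of them among the genes that the naming rule took and that are reported here. Values of genes with 0 to 3 reads in a group move with the pseudocount and set no bound.

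Of the genes higher in both lines, Tnnt2 (5.14), Col2a1 (3.74), Tnni1 (2.43) and Fbln2 (1.09) had the larger rise in Mfn1-/- MEFs. The rise was larger in Mfn2-/- MEFs for Pax3 (-1.44), Mmp2 (-1.53), Tbx20 (-1.94), Fgfr3 (-1.99), Wnt4 (-2.16), Mgst1 (-2.34), Myrf (-2.68), Wt1 (-3.57), Aplp1 (-4.45), Podxl (-4.88) and Aldh1a1 (-6.99). These include markers of mesothelium and of heart, a WNT ligand and a retinoid enzyme.

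Of the genes lower in both lines, the fall was larger in Mfn2-/- MEFs for Ndn (7.91), Scara3 (7.07), Npr3 (6.56), Col1a2 (6.27), Ebf1 (5.62), Col7a1 (4.06), Ptges (3.90), Il1rl1 (3.57), Cspg4 (2.60) and Pfkfb4 (1.04), which include 2 collagens and an adipogenic factor. It was larger in Mfn1-/- MEFs for Wnt10b (-2.10), Zfp521 (-2.59), Hoxc6 (-4.07) and Hoxc4 (-4.66).

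The differences of the genes higher in Mfn1-/- and lower in Mfn2-/- MEFs were largest for Asb4 (11.29), Col15a1 (10.65), Meg3 (10.63), Cdh13 (9.34), Rian (9.09), Dpt (8.83), Pkp1 (6.52), En1 (5.69) and Sox9 (5.20), which hold the imprinted and the matrix genes of the class. They were 4.27 for Fzd8, 4.17 for Col18a1, 3.90 for Meis1, 3.84 for Bnip3, 3.35 for Ccnd2, 3.31 for Gsto1, 3.20 for Igf2r, 2.96 for Cxcl12, 2.96 for Thbs1, 2.89 for Angptl2, 2.20 for Tnc, 1.88 for Hk1, 1.46 for Cdkn2b and 1.34 for Tgfbr2.

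In the reverse class they were -10.13 for Igfbp5, -9.28 for Ptprq, -8.59 for Plagl1, -7.48 for Mycn, -6.10 for Wnt5a, -5.81 for Nid2, -5.70 for Dhrs3, -4.85 for Wnt9a, -3.61 for Tbx18, -2.61 for Id3, -2.29 for Meis2 and -1.69 for Fbln1. The targeted genes differed by -2.89 for Mfn1 and 1.67 for Mfn2, each lower in its own knockout line. In both opposite classes the difference follows in part from how the classes were made.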

How the results depend on the processing

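Pseudocounts of 0.5 or 5, no filter, a filter at 50 and TMM left all 7 counts within 1.5 times. With only the 12 libraries of day -2, the Mfn1-/- effect held 4892 called genes, the genes lower in both lines 1153, and the opposite classes 448 and 217. DESeq2 called 5355 genes in the Mfn1-/- effect, 1199 higher and 1272 lower in both, 527 and 245 apart, and 4713 in the difference. EdgeR called 4957, 1189 lower in both, and 499 and 181 apart. With the WT sets crossed after TMM the Mfn1-/- effect held 6177 genes, the opposite classes 1040 and 1326, and the difference 7215. Here the WT difference enters the 2 effects with opposite signs by construction. Without genes overlapped on the opposite strand, 55 genes were lower in Mfn1-/- and higher in Mfn2-/- MEFs, since fewer genes were tested. Each block fitted alone gave 8025 genes in the Mfn2-/- effect and kept 83.3%, 83.1%, 82.9% and 67.1% of the 4 classes. There the Mfn1-/- effect lost its call for Adamts9, Cxcl12, Fmod, Fzd8, Gss, Hk1, Mylk, Ogn, Plagl1, Thbs1, Thbs3, Wnt5a and mt-Nd5. The main fit used 1 spread per gene for both effects. Replicates differed more, by a chi-square of reads per gene, in WT A-C (6.69 to 37.674) and Mfn1-/- MEFs (10.82 to 30.04). It was 1.419 to 2.801 in WT D-F and 2.366 to 3.684 in Mfn2-/- MEFs. The causes of the other changes were not tested.

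With the replicate block, 5139 genes were called in the Mfn1-/- effect, 1170 higher and 1210 lower in both lines, 442 and 241 apart, and 4610 in the difference. Whether the letters pair the samples by design is not given in the sources used here. Each Mfn1-/- library correlated best with the WT library of its own letter.

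Leaving out each library in turn gave 2367 to 3119 genes in the Mfn1-/- effect, 4295 to 5084 in the Mfn2-/- effect, 2600 to 2781 in the difference, 618 to 717 higher and 537 to 616 lower in both, 203 to 230 higher in Mfn1-/- and lower in Mfn2-/- MEFs, and 63 to 75 the reverse. Outside the crossed WT sets, no gene of a class passed into another class under any of these settings. With the WT sets crossed, 72.0%, 68.4%, 68.4% and 47.1% of the 4 classes kept theirs, and 11, 11, 6 and 0 genes passed into another.

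Each value of a named gene had 22 to 24 alternatives. Of these, 183 lost and 60 gained the call, and 8389 kept their side of the threshold. Another 5, called in the main fit, turned round, all with the WT sets crossed. These 5 were the differences of Mmp2 (0.87), Pax3 (0.59) and Zfp521 (0.23) and the Mfn1-/- effects of Plagl1 (0.83) and S100a4 (1.6). Values not called in the main fit could also change sign, and some gained calls lay in the other direction. With the WT sets crossed, the difference of Igfbp4 went from -1.23 to 2.09 and that of S100a4 from -0.28 to 8.05. Of the 1809 genes called in both effects, 891 kept their directions both in Mfn1-/- MEFs at day 0 and in Mfn2-/- MEFs at day +8, and 949 did so without the libraries labelled Mfn1-/- at day +8.

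Depth limits the lowest genes. A gene with 0 reads in a group could not be told from up to 3 reads over its 3 libraries, and library totals differed up to 37011894 against 8800674 reads.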
